A study of Homo sapiens with 2 samples.

Results

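The zinc finger genes of human chromosome 19 were taken as all rows of the deposited expression table that were typed protein-coding, carried a symbol made of ZNF, a number and at most 1 letter, and had a locus on chromosome 19. This rule, which used no measured value, gave 246 of the 58302 genes listed. The study measured RNA by sequencing in HL60-EIF2S3 cells, a stable derivative of the established promyelocytic leukemia line HL60 that carries EIF2S3, which encodes the gamma subunit of eIF2, a factor that starts translation, under the Retro-X Tet-Off Advanced system. The library labelled DOX(-) came from untreated cells, in which the transgene is meant to be on, and the library labelled DOX(+) came from cells given doxycycline (DOX), which is meant to suppress it. Both conditions share the transgene, the activator and the HL60 background, so no library came from cells without the construct, and the presence of DOX cannot be told apart from the state of the transgene. Each condition had 1 library, and whether the stable line was 1 clone was not given in the sources used here.

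Most proteins of this family bind DNA through tandem C2H2 fingers, each a short loop folded round a zinc ion by a pair of cysteines and a pair of histidines. Many carry an amino-terminal KRAB domain, which binds the co-repressor TRIM28 (KAP1), and TRIM28 in turn brings in SETDB1, the enzyme that places the H3K9me3 mark of silent chromatin. The best known targets of KRAB zinc finger proteins are transposable elements, and on chromosome 19 the genes stand in large clusters that grew by repeated duplication.

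The label held up against the annotated proteins. Of the 246 members, 245 had at least 1 C2H2 finger and 238 had at least 4 in the translated coding sequences of GENCODE release 29, with a median of 12 fingers and a maximum of 36 in ZNF208. ZNF738, singled out after its value was seen, was the member with 0 fingers by this pattern. A KRAB pattern was found in 209 members and not in the other 37. The 31-base words of the transcripts were mostly unique, as a median of 6.05% of a member's words also occurred in transcripts of genes elsewhere. In 28 members that share was at least 20%, with the highest value of 51.2% in ZNF443, so reads of these 28 could be split between copies. Same-strand exons were shared with another annotated gene in 82 members. Whether the authors' counting used strand was not given in the sources used here, so reads from genes on the opposite strand cannot be told apart either.

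Expression was deposited as FPKM, fragments divided by transcript length and by the size of the library. Steps in the FPKM values of genes with a single transcript gave totals of 16577644 fragments in DOX(-) and 18521267 in DOX(+). EIF2S3 itself, the check of the labels, had 132.9 FPKM in DOX(-) against 126.2 FPKM in DOX(+), and the counting interval on the ratio ran from 0.927 to 1.2, so the transgene's switching did not show in the gene's total level and each direction below rests on the labels alone. Promyelocyte markers summed to 1348 FPKM in DOX(-) against 1075 FPKM in DOX(+) and included ELANE, PRTN3, AZU1, CTSG and CD33, whereas MPO, a defining marker of the lineage, was near 0 in both (0.274 FPKM in DOX(-) against 0.469 in DOX(+)). Both T cell markers and both epithelial markers were listed at 0, and the B cell, erythroid and fibroblast marker sums were at most 0.281 FPKM in DOX(-) against 0.240 FPKM in DOX(+). With 1 library per condition no difference could be set against the spread between cultures, so no p-value was computed and the values describe these libraries. Counting intervals are exact conditional 95% intervals on estimated fragments and cover counting error only.

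Most members were above 0 but weakly expressed. Of the 246 members, 188 (76.4%) were above 0 in at least 1 library. That share was 79.8% for ZNF genes on other chromosomes and 73.8% for the other protein-coding genes of chromosome 19. It was 70.2% for all protein-coding genes. Some values above 0 round to 0 fragments even on the longest transcript. Of the members, 165 were above 0 in both libraries and 58 were listed at 0 in both. A further 8 were above 0 in DOX(-) alone and 15 in DOX(+) alone. Over all 19817 protein-coding genes these counts were 426 and 776, and over all 58302 genes 1585 and 2454. Only 76 members (30.9%) reached 1 FPKM in either library, 64 of them in DOX(-) and 71 in DOX(+), whereas 52.3% of the 262 ZNF genes on other chromosomes and 47.9% of the 1221 other protein-coding genes of chromosome 19 did so. The median level over all members was 0.310 FPKM in DOX(-) against 0.328 FPKM in DOX(+). ZNF genes on other chromosomes had medians of 0.870 FPKM in DOX(-) against 0.970 in DOX(+). All members together held 0.0806% of the summed FPKM in DOX(-) and 0.0928% in DOX(+).

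The level of a few members stood well above the rest. Only 8 members reached 5 FPKM in either library, and the 5 highest gave 25.2% of the family's summed FPKM in DOX(-) and 24.7% in DOX(+). ZNF146 (19:36214602-36238774, GRCh38), which encodes a small protein made almost wholly of fingers and lacks a KRAB domain, was at 14.9 FPKM in DOX(-) against 19.5 FPKM in DOX(+). ZNF787 (19:56087366-56121280) was at 15.5 FPKM in DOX(-) against 15.7 FPKM in DOX(+), and ZNF428, with 1 finger by the pattern, had 12.1 FPKM in DOX(-) against 11.9 in DOX(+). These 3 had no KRAB pattern, and only ZNF146 among them differed between the libraries by more than counting error. ZNF121, also without the pattern, was at 6.54 FPKM in DOX(-) against 10.7 FPKM in DOX(+). Of these 8, ZNF614 and ZNF480 were the members with a KRAB pattern, so the highest levels belonged mainly to genes without it. ZNF614 had 6.18 FPKM in DOX(-) against 8.15 in DOX(+). ZNF480 had 2.91 FPKM in DOX(-) against 5.41 in DOX(+). ZNF526 had 7.86 FPKM in DOX(-) against 7.36 in DOX(+), and with ZNF581 (6.92 FPKM in DOX(-) against 5.18 in DOX(+)) it was among the 3 of the 8 that were higher in DOX(-), the third being ZNF428.

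**Figure D1:**
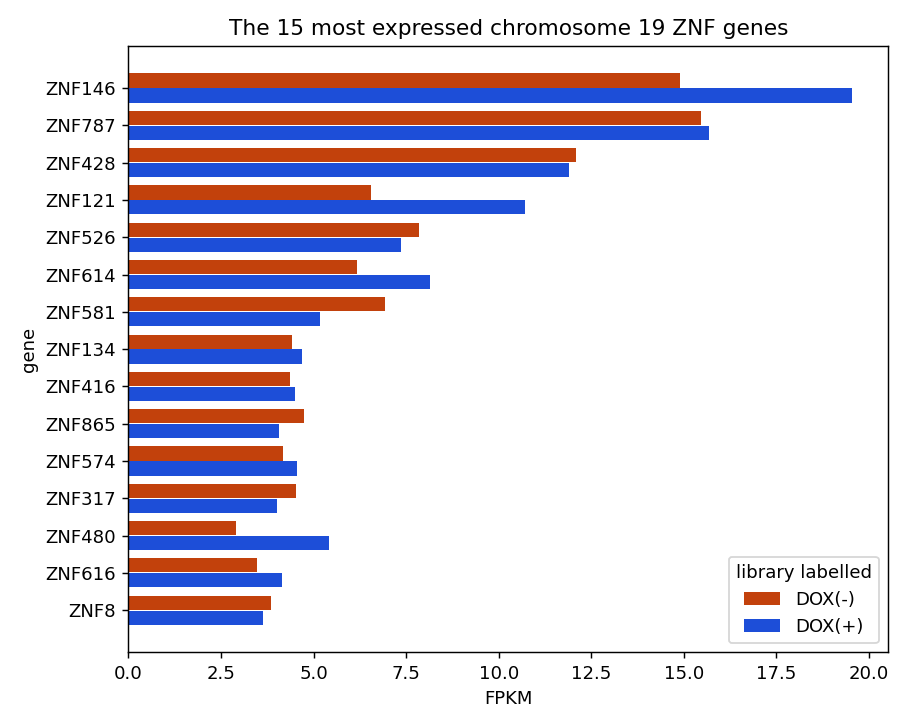
FPKM of the 15 members with the highest mean level, with DOX(-) bars beside DOX(+) bars on an axis from 0 and 1 library per bar. ZNF146 and ZNF787 lead in both libraries, and the pairs of bars for ZNF121 and ZNF480 stand farthest apart in proportion, each lower in DOX(-).

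The remaining 7 genes of the top 15 had bars less than 1.5-fold apart. ZNF616 stood farthest apart in proportion, with 3.47 FPKM in DOX(-) against 4.15 in DOX(+). ZNF416, which has 1 annotated transcript and therefore a firm fragment estimate, was at 4.36 FPKM in DOX(-) against 4.51 FPKM in DOX(+), with an interval of 0.789 to 1.18 on the ratio. ZNF8, likewise with 1 transcript but with exons shared with 2 other annotated genes, was at 3.85 FPKM in DOX(-) against 3.64 in DOX(+). Its interval was 0.942 to 1.19. ZNF134, ZNF574, ZNF865, ZNF317 and ZNF616 spanned 3.47 to 4.75 FPKM in DOX(-) and 4.01 to 4.68 FPKM in DOX(+). ZNF865 and ZNF317 were the higher in DOX(-) among these 5, and the other 3 were the lower. In none of these 7 did the levels differ between the libraries by 1.5-fold.

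Members with a KRAB pattern were expressed less often and at lower levels than those without. Among the 209 with the pattern, 55 (26.3%) reached 1 FPKM in either library, and the median was 0.214 FPKM in DOX(-) against 0.249 FPKM in DOX(+). Among the 37 without it, 21 (56.8%) reached 1 FPKM, with medians of 0.970 FPKM in DOX(-) against 1.21 in DOX(+). The members without the pattern summed to 101.5 FPKM in DOX(-) against 116.4 FPKM in DOX(+), while those with it summed to 125.6 FPKM in DOX(-) against 150.6 in DOX(+). Of the 58 members listed at 0 in both libraries, 53 had the pattern. The number of fingers went the same way, since 42.2% of the 64 members with fewer than 10 fingers reached 1 FPKM, compared with 29% of the 107 with 10 to 14 and 24% of the 75 with 15 or more.

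Levels between the libraries leaned towards lower values in DOX(-). The summed FPKM of all 246 members was 227.1 in DOX(-) and 267.0 in DOX(+), a ratio of 0.851, and it was 0.858 without ZNF146. In bulk RNA, fewer expressing cells and less RNA per cell cannot be told apart. The same ratio of sums was 0.960 for ZNF genes on other chromosomes, 1.1 for the other protein-coding genes of chromosome 19 and 0.949 for all protein-coding genes. Differences for single genes were taken as log2 of (FPKM + 1) in DOX(-) over DOX(+), which understates the change of low genes, among genes that reached 1 FPKM in either library. Over the 76 members at that level the median was 1.57 FPKM in DOX(-) against 2.02 FPKM in DOX(+). The median log2 ratio was -0.21, with a lower quartile of -0.38, and 55 of 76 (72.4%) were below 0. Over all 11525 genes at that level the median log2 ratio was -0.02, and 53.4% were below 0. For the 4155 protein-coding genes under 5 FPKM in both libraries, a set nearer to the members in level, the median was -0.03 and 56.2% were below 0.

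A gene enters that set if it is high in only 1 library, and such a gene has to differ, so values over the 76 members are descriptions only. Of the 76 members, 59 were at 1 FPKM or more in both libraries, 12 in DOX(+) alone and 5 in DOX(-) alone. Of the 9283 protein-coding genes at that level in either library, 9067 reached it in DOX(+), 9007 in DOX(-) and 8791 in both. The 59 members had a median log2 ratio of -0.14, with 43 (72.9%) below 0. The 8791 protein-coding genes that met the same condition had a median of -0.02, with 54.0% below 0. Below 1 FPKM in both libraries, 72 of the 112 members above 0 had a log2 ratio below 0 and 40 had one above 0. Just inside the limit were ZNF784 with 0.741 FPKM in DOX(-) against 1.06 in DOX(+), ZNF302 with 0.456 FPKM in DOX(-) against 1.06 in DOX(+), and ZNF547 with 0.639 FPKM in DOX(-) against 1.08 in DOX(+). Just outside it were ZNF805 with 0.793 FPKM in DOX(-) against 0.981 in DOX(+), ZNF417 with 0.966 FPKM in DOX(-) against 0.981 in DOX(+), and ZNF221 with 0.843 FPKM in DOX(-) against 0.982 in DOX(+).

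**Figure D2:**
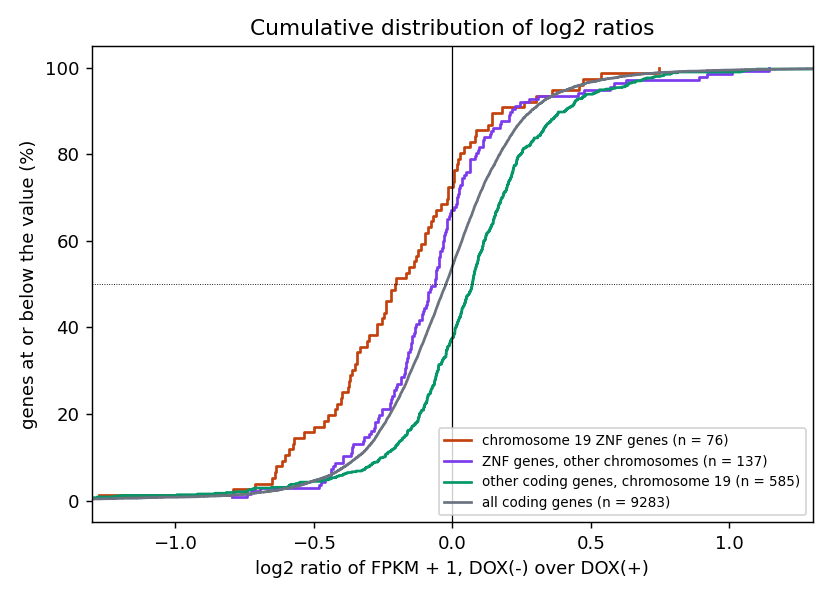
Cumulative share of genes (%) against the log2 ratio of FPKM + 1 in DOX(-) over DOX(+), for members, ZNF genes on other chromosomes, other protein-coding genes of chromosome 19 and all protein-coding genes, each at 1 FPKM or more in either library. The curve of the members lies to the left of the others over most of its length, with 72.4% of members below 0, and the other genes of chromosome 19 lie to the right, with 37.6% below 0.

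Protein-coding genes around the members had median log2 ratios above 0. The 585 other protein-coding genes of chromosome 19 at 1 FPKM or more had a median log2 ratio of 0.07, with 37.6% below 0. Restricted to the 56 such genes without a ZNF symbol that lie between members inside the clusters, the median was 0.04 and 24 were below 0. ZNF genes on other chromosomes lay between, with 137 at that level, a median of -0.06 and 67.2% below 0. Of 18 chromosome 19 genes with C2H2 fingers under other names, 4 reached 1 FPKM, namely KLF1, KLF16, MZF1 and ZSCAN22, and all 4 were below 0 with a median of -0.11. No test of the difference between these sets was made.

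By a rule of size set at 1.5-fold on log2(FPKM + 1), 9 of the 76 members (11.8%) were lower in DOX(-), where the background over all genes at that level was 4.06%. In the other direction 1 member, ZNF17, was at least 1.5-fold higher in DOX(-), where the background was 3.11%. Of these, ZNF529, ZNF444, ZNF224 and ZNF17 reached 1 FPKM only in the library where they were the higher. Among the 59 members at 1 FPKM or more in both libraries, 6 were at least 1.5-fold lower and 0 higher, where the backgrounds were 2.83% and 2.19% over all genes and 2.49% and 1.93% over protein-coding genes that met the same condition. At 1 FPKM or more in either library the backgrounds among protein-coding genes were 2.98% lower and 2.36% higher. At 2-fold, 1 member was lower and 0 were higher, with backgrounds of 1.2% and 0.833% over all genes and 0.797% and 0.582% over protein-coding genes. On plain FPKM, with no pseudocount, 23 of the 76 members were at least 1.5-fold lower and 4 at least 1.5-fold higher, beside backgrounds of 8.23% and 5.79% over all genes.

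Counting error taken on the shortest transcript narrows this list, and taken on the longest it does not. When the 1.5-fold rule was joined with a counting interval that leaves out equal levels, taken on each gene's shortest transcript and so at its widest, 3 of 76 members (3.95%) were lower in DOX(-), namely ZNF121, ZNF480 and ZNF580, and 0 were higher. The background for that pair of conditions was 2.81% lower and 2.17% higher over all genes, so the share of members was near it. By the interval alone 9 members were lower and 0 higher, beside backgrounds of 8.51% and 7.59%. With the longest transcript, which gives the most fragments and the narrowest interval, 35 of the 76 members were lower and 5 higher, beside backgrounds of 23.4% and 18.1%. All 9 members at least 1.5-fold lower kept an interval below equal levels there. Which transcripts the cells made was not tested.

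**Figure D3:**
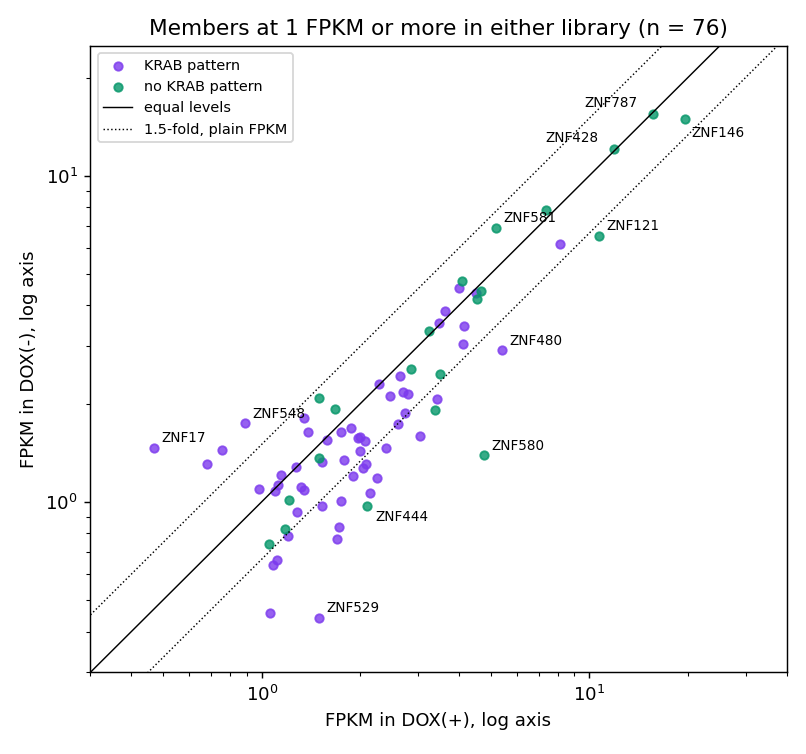
FPKM of the 76 members at 1 FPKM or more in either library, DOX(-) on the vertical axis and DOX(+) on the horizontal axis, both logarithmic, with KRAB pattern by colour, a solid line at equal levels and dotted lines at 1.5-fold on plain FPKM. Most points lie under the solid line. ZNF580 and ZNF529 lie farthest below it, and ZNF17 lies farthest above it.

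Among the members at least 1.5-fold lower in DOX(-), ZNF121 (19:9560353-9584533) had the most fragments on the shortest transcript, with 6.54 FPKM in DOX(-) against 10.7 FPKM in DOX(+), a ratio of 0.611 and an interval of 0.437 to 0.846. ZNF480 (19:52297177-52325922), a KRAB gene, had 2.91 FPKM in DOX(-) against 5.41 FPKM in DOX(+), a ratio of 0.539 with an interval of 0.327 to 0.867. ZNF146 was the most abundant member whose interval left out equal levels, at a ratio of 0.762 and 0.608 to 0.958. ZNF296, whose mouse counterpart is known as a partner of KLF4 in reprogramming to pluripotency, had 2.47 FPKM in DOX(-) against 3.50 FPKM in DOX(+), with an interval of 0.512 to 0.968. The other 4 members whose intervals lay below equal levels were named after their values were seen. They were ZNF845 (2.06 FPKM in DOX(-) against 3.44 in DOX(+)), ZNF700 (1.46 FPKM in DOX(-) against 2.39 in DOX(+)), ZNF557 (1.73 FPKM in DOX(-) against 2.61 in DOX(+)) and ZNF587B (1.31 FPKM in DOX(-) against 2.08 in DOX(+)). ZNF845 had the narrowest interval of these, 0.489 to 0.734, though 22.4% of its words also occurred elsewhere.

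ZNF580 had the lowest ratio of all members, with 1.39 FPKM in DOX(-) against 4.78 FPKM in DOX(+), a log2 ratio of -1.28. It cannot be read alone, since it overlaps ZNF581 on the same strand and both share exons with each other and with CCDC106. ZNF581 went the other way, with 6.92 FPKM in DOX(-) against 5.18 FPKM in DOX(+). The pair summed to 8.31 FPKM in DOX(-) against 9.96 FPKM in DOX(+), and CCDC106 was at 1.74 FPKM in DOX(-) against 1.52 in DOX(+). How the authors' counting shared reads between these genes was not tested.

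Other members past 1.5-fold rested on few fragments when counted on the shortest transcript. ZNF529 had 0.441 FPKM in DOX(-) against 1.5 FPKM in DOX(+), a ratio of 0.294 with an interval of 0.0546 to 1.15. ZNF444 had 0.970 FPKM in DOX(-) against 2.09 in DOX(+). ZNF627 had 1.59 FPKM in DOX(-) against 3.04 in DOX(+). These levels correspond to between 3 and 30 fragments on the shortest transcript and to between 38 and 216 on the longest. ZNF100 had 1.07 FPKM in DOX(-) against 2.14 in DOX(+). ZNF579 had 1.92 FPKM in DOX(-) against 3.39 in DOX(+). ZNF224, a KRAB repressor first described on the aldolase A gene and a cofactor of WT1, had 0.767 FPKM in DOX(-) against 1.70 FPKM in DOX(+). On the shortest transcript the intervals of these 6 genes all included equal levels, and on the longest transcript none of them did. ZNF430, at 1.18 FPKM in DOX(-) against 2.25 FPKM in DOX(+), stood just short of 1.5-fold on the log2(FPKM + 1) scale.

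The largest ratios above 1 among members at 1 FPKM or more belonged to 4 genes that reached that level in DOX(-) alone and so had to be higher there. ZNF17 (19:57411163-57421939) had 1.46 FPKM in DOX(-) against 0.470 FPKM in DOX(+), a ratio of 3.11, with an interval of 0.837 to 19.2 on the shortest transcript. Its neighbour ZNF548 (19:57389850-57402992) had 1.74 FPKM in DOX(-) against 0.891 in DOX(+). Farther along, ZNF773 had 1.31 FPKM in DOX(-) against 0.682 in DOX(+) and ZNF324B had 1.44 FPKM in DOX(-) against 0.756 in DOX(+). These 4, with ZNF581, were the members whose intervals on the longest transcript lay above equal levels. ZNF17 and ZNF548 both share exons with the annotated gene AC003002.3, at 0.351 FPKM in DOX(-) against 0.0699 FPKM in DOX(+), and ZNF548 also shares exons with AC003002.1, which was lower in DOX(-) at 1.06 FPKM than in DOX(+) at 2.01 FPKM. Smaller differences in the same direction were seen in ZNF524 (2.07 FPKM in DOX(-) against 1.5 in DOX(+)), ZNF584 (1.81 FPKM in DOX(-) against 1.34 in DOX(+)) and ZNF83 (1.64 FPKM in DOX(-) against 1.39 in DOX(+)).

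Promoters of the family shared sequence features. Of the 246 members, 215 were matched in the RefSeq promoter table (GRCh38.p14), and motifs were searched on both strands in the 250 bases before the start. The ETS core CCGGAAG was found in 32.1% of members, compared with 8.52% of all 35116 promoters and 10.7% of the 22199 of protein-coding genes. The GC box GGGCGG was found in 65.1% of members, against 42.6% and 53.7%. The TATA box TATAAA was rarer in members, at 1.86%, against 10.7% and 9.0%, and so was the E-box CACGTG, at 3.72% against 6.34% and 7.37%. The NRF1 core GCGCATGC was at 3.72% of members, against 2.63% and 3.26%. The YY1 core AAGATGG was at 4.65% of members, against 3.70% and 3.36%. An observed to expected ratio of CpG over 0.6 was found in 69.8% of members. It was found in 47.5% of all promoters and 60.2% of those of protein-coding genes. Among the 69 members at 1 FPKM or more it was found in 75.4%, among the 98 between 0 and 1 FPKM in 72.4%, and among the 48 listed at 0 in both libraries in 56.2%. Over these groups in the same order, the GC box was found in 63.8%, 61.2% and 75%, and the ETS core in 34.8%, 29.6% and 33.3%. These are letter matches and not measured binding.

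The bases from -250 to -51 before the start are given for a member lower in DOX(-) with many fragments (ZNF121), a member past 1.5-fold lower at high GC content (ZNF579), the neighbour of ZNF17 that was higher in DOX(-) (ZNF548) and an abundant member at almost equal levels (ZNF787). They lie at chr19:9584555-9584754 (minus strand), chr19:55580899-55581098 (minus), chr19:57389604-57389803 (plus) and chr19:56121346-56121545 (minus) and are from RefSeq, GRCh38.p14, written on the gene's strand from 5′ to 3′. Capitals mark the GC box and the ETS core on either strand.
ZNF121: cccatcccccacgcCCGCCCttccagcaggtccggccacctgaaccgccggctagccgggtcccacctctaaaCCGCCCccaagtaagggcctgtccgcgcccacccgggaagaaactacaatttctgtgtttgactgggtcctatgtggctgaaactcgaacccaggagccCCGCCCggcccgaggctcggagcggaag
ZNF579: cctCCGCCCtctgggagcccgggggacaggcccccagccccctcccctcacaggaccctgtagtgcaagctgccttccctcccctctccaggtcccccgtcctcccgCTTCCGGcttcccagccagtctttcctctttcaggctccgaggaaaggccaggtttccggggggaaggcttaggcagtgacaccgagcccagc
ZNF548: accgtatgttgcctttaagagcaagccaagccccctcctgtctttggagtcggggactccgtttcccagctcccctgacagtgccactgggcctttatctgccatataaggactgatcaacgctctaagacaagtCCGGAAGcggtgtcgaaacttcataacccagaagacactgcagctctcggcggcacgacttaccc
ZNF787: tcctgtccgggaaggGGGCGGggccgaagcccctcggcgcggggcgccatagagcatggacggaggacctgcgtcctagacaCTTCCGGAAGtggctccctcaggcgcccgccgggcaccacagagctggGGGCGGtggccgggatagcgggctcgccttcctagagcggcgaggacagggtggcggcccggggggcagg
ZNF121 holds 3 GC boxes and no ETS core, ZNF579 holds 1 of each, ZNF548 holds 1 ETS core, and ZNF787 holds 2 GC boxes and 2 ETS cores that overlap on opposite strands.

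The median log2 ratio was below 0 with and without either motif. Among members at 1 FPKM or more, the 24 with the ETS core had a median log2 ratio of -0.14 and the 45 without it -0.22. For the GC box the medians were -0.21 in 44 members with it and -0.16 in 25 without it. In all 4 subsets most members were below 0, with 17, 35, 31 and 21 of them in the order given.

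Along the chromosome the 246 members fell into 16 blocks, defined as runs in which neighbouring starts were at most 1 Mb apart, and 7 blocks of 15 or more held 225 of them. The summed level was lower in DOX(-) in each of these 7, beside a ratio of sums of 0.949 over all protein-coding genes. In some of the smaller blocks the summed level was higher in DOX(-). Among these 7, the ratio of sums was lowest in the block from ZNF101 to ZNF254 (19:19668796-24129961), with 10.9 FPKM in DOX(-) against 15.6 FPKM in DOX(+) over 37 members, a ratio of 0.695. This block lies on the short arm next to the centromere and holds many recently duplicated genes, and only 7 of its members reached 1 FPKM. The block from ZNF653 to ZNF791 (19:11483427-12640098, 25 members) summed to 11.3 FPKM in DOX(-) against 15.4 in DOX(+), a ratio of 0.734, with a median log2 ratio of -0.45 over 5 members, all below 0. The block from ZNF565 to ZNF573 (19:36182060-37817300, 26 members) summed to 21.9 FPKM in DOX(-) against 29.1 in DOX(+), a ratio of 0.753, and most of that level came from ZNF146.

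The block from ZNF175 to ZNF331 (19:51571298-53580269, 39 members) summed to 29.5 FPKM in DOX(-) against 38.7 FPKM in DOX(+), a ratio of 0.762, and was led by ZNF614. The block from ZNF557 to ZNF846 (19:7069444-9793180, 15 members), led by ZNF121, had a ratio of 0.812, and the block from ZNF575 to ZNF296 (19:43525497-45076588, 24 members), led by ZNF428, had 0.858. The block nearest the end of the long arm, from ZNF628 to ZNF446 (19:55476332-58481230), stood apart in level. It held 59 members, of which 53 were above 0 and 30 reached 1 FPKM, and it summed to 84.4 FPKM in DOX(-) against 89.9 FPKM in DOX(+), a ratio of 0.939. All 5 members that reached 1 FPKM in DOX(-) alone lie in this block, so the log2 ratio is given for members at 1 FPKM or more in both libraries, where 15 of 22 were below 0 in the block, with a median of -0.11, and 28 of 37 outside it, with a median of -0.21. Among KRAB members the same counts were 11 of 15 in the block and 21 of 26 outside it. At 1 FPKM or more, transcripts of members in the block had a median GC content of 48.7% and those outside it 41.5%.

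**Figure D4:**
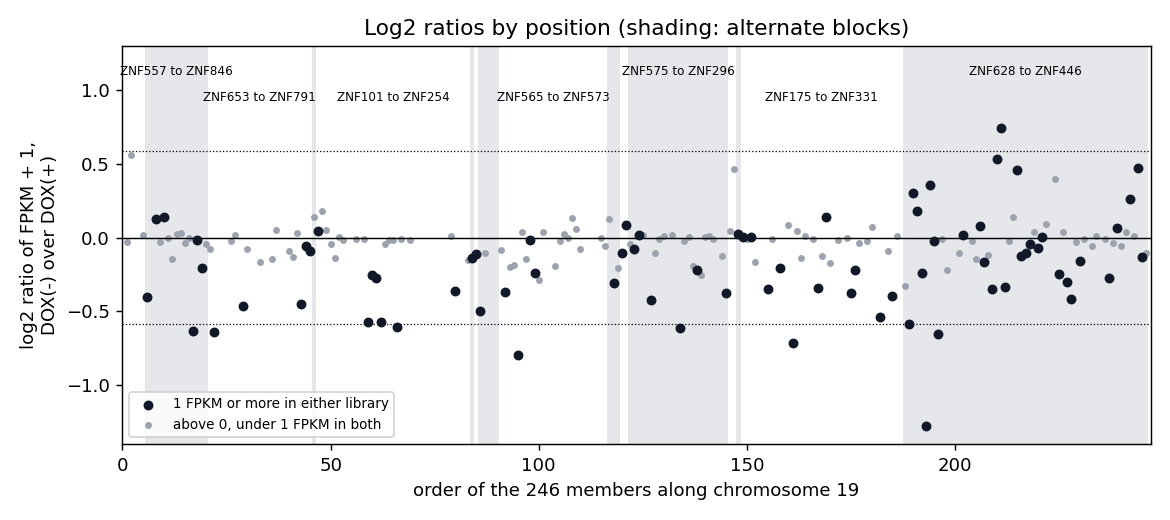
Log2 ratio of FPKM + 1 in DOX(-) over DOX(+) for members above 0, in their order along chromosome 19, with alternate blocks shaded and the 7 blocks of 15 or more members named by their first and last gene. Dark points are members at 1 FPKM or more in either library, grey points are lower members, and dotted lines mark 1.5-fold. ZNF17, past the upper line, was under 1 FPKM in DOX(+), and most dark points lie below 0.

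The other 9 blocks held 1 to 5 members each, with ratios of sums from 0.499 (ZNF302 to ZNF792) to 2.47 (ZNF541 to ZNF114). Their leading members included ZNF473, which takes part in the 3′ end processing of histone pre-mRNA, at 3.33 FPKM in DOX(-) against 3.24 FPKM in DOX(+), and ZNF507 at 2.56 FPKM in DOX(-) against 2.85 in DOX(+). ZNF536, a repressor of neuronal differentiation, was at 1.01 FPKM in DOX(-) against 1.21 in DOX(+), and ZNF302 at 0.456 FPKM in DOX(-) against 1.06 in DOX(+). The lower leaders included a few that were higher in DOX(-), with ZNF555 at 0.717 FPKM in DOX(-) against 0.162 FPKM in DOX(+), ZNF114 at 0.812 FPKM in DOX(-) against 0.314 in DOX(+), and ZNF333 at 0.460 FPKM in DOX(-) against 0.327 in DOX(+). Each of these 3 was under 1 FPKM in both libraries. ZNF780B was at 0.784 FPKM in DOX(-) against 1.21 in DOX(+).

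Across protein-coding genes the log2 ratio was higher at higher GC content of the transcript. When the protein-coding genes at 1 FPKM or more were divided into 5 equal groups by the GC content of their longest transcript, the median log2 ratio of genes other than the members was -0.16 in the group of lowest GC (31.3 to 40.8%) and 0.06 in the group of highest GC (57.8 to 73.8%). Members at that level had a median GC content of 44.1%, ZNF genes on other chromosomes 47.6%, all protein-coding genes 48.1% and the other genes of chromosome 19 60.0%. In the group of lowest GC all 19 members were below 0, with a median of -0.40, and 77.2% of the other genes were below 0. Genes entered these groups at 1 FPKM or more in either library. Members that reached that level in DOX(+) alone, such as ZNF302, ZNF529, ZNF708 and ZNF224 in the lowest group, had to be below 0. The member values by GC group are therefore descriptions only. In the next group (40.8 to 45.4%) 25 members had a median of -0.21, beside -0.07 in the others. The groups of higher GC had member medians of -0.04, -0.11 and -0.02 in 13, 4 and 15 members, beside values of 0.06 in the others for both of the last groups.

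After each ratio was centred on the median of the other protein-coding genes in its GC group, an adjustment chosen after seeing the data, the median of the 76 members was -0.15 and 53 were below 0. Under that adjustment 4 members were at least 1.5-fold lower in DOX(-), namely ZNF444, ZNF529, ZNF579 and ZNF580, and 2 at least 1.5-fold higher. Of these, ZNF444 and ZNF529 reached 1 FPKM in DOX(+) alone, and ZNF580 cannot be read alone. The 76 members include 12 at that level in DOX(+) alone and 5 in DOX(-) alone, so the centred values are descriptions only. After the same centring 2.61% of the other protein-coding genes were that much lower and 2.4% that much higher. The part of GC content in the difference between the libraries was not tested further. By transcript length, the same 76 members lay below the other genes in each of 5 equal groups, with medians between -0.02 and -0.37.

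**Figure D5:**
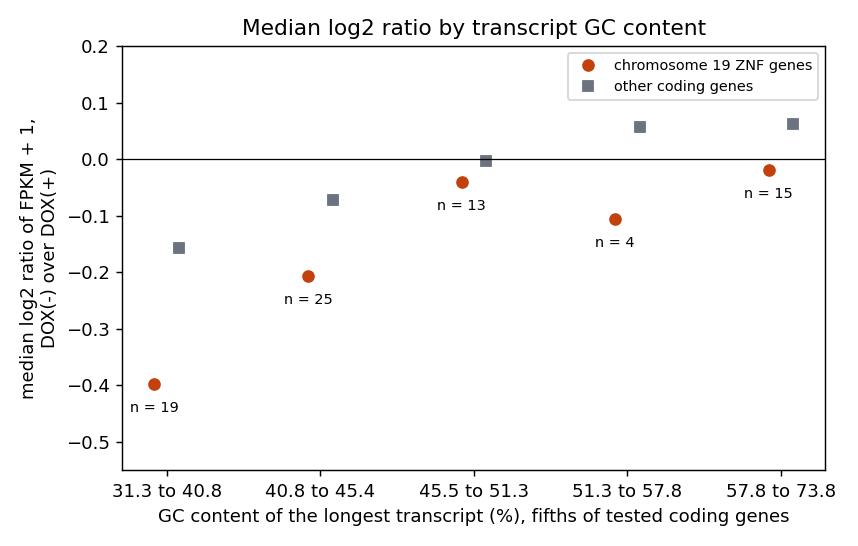
Median log2 ratio of FPKM + 1 in DOX(-) over DOX(+) in 5 equal groups of protein-coding genes by GC content of the longest transcript (%), for the members (circles, with their number) and for the other protein-coding genes (squares). Both medians are lowest in the group of lowest GC, at -0.40 and -0.16, and the members lie below the other genes in each group. Genes are those at 1 FPKM or more in either library, so members at that level in DOX(+) alone had to be below 0.

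Subsets of the family were compared over the 59 members at 1 FPKM or more in both libraries, with no test of their differences. Members with a KRAB pattern had a median log2 ratio of -0.21 with 32 of 41 below 0, and members without it -0.07 with 11 of 18 below 0. At 1.5-fold, 3 of the 41 (7.32%) and 3 of the 18 (16.7%) were lower in DOX(-). The backgrounds under the same condition were 2.83% over all genes and 2.49% over protein-coding genes. The 3 without the pattern include ZNF580, which cannot be read alone. By number of fingers the medians were -0.10 with fewer than 10, -0.14 with 10 to 14 and -0.37 with 15 or more, over 21, 25 and 13 members. The 6 members with at least 20% of their words elsewhere were all below 0, with a median of -0.34, and the other 53 had a median of -0.11. Members free of shared exons had a median of -0.10 with 27 of 40 below 0, and those with shared exons -0.22 with 16 of 19 below 0.

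Members with published roles in the control of transposable elements ranged from listed at 0 to 2.46 FPKM. ZNF91, a repressor of SVA and LINE-1 elements, had 0.00685 FPKM in DOX(-), and DOX(+) lists it at 0, and ZNF93, which represses LINE-1, was at 0.671 FPKM in DOX(-) against 0.842 in DOX(+). ZNF417 and ZNF587, near copies known to repress HERV-K, had shares of 43.6% and 31.7% of words that occur elsewhere. ZNF417 had 0.966 FPKM in DOX(-) against 0.981 in DOX(+), and ZNF587 had 2.11 FPKM in DOX(-) against 2.46 in DOX(+). Both ZNF649 and ZNF765 bind LINE-1 sequences. ZNF649 had 1.28 FPKM in DOX(-) against 1.27 in DOX(+), ZNF765 had 0.347 FPKM in DOX(-) against 0.435 in DOX(+), and ZNF534 was listed at 0 in both libraries. ZNF274, which brings SETDB1 to the 3′ ends of zinc finger genes themselves, was at 1.54 FPKM in DOX(-) against 2.07 FPKM in DOX(+). Its interval on the shortest transcript, 0.292 to 1.96, included equal levels.

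Members known for other roles and not described above were spread over the same range, whereas ZNF296, ZNF580 and ZNF581, given above, reached higher levels. ZNF675, an inhibitor of TRAF6 signalling, was at 0.969 FPKM in DOX(-) against 1.53 FPKM in DOX(+), and ZNF175, reported to restrain HIV-1 replication in macrophages, was at 2.29 FPKM in DOX(-) against 2.28 in DOX(+). ZNF304, a repressor that acts on the INK4-ARF locus, was at 0.685 FPKM in DOX(-) against 0.832 in DOX(+). ZNF382 was at 0.0374 FPKM in DOX(-) against 0.00772 in DOX(+). ZNF331, an imprinted gene, and ZNF568, whose mouse counterpart silences a placental Igf2 transcript, were listed at 0 in both libraries. A value listed at 0 in a table without counts can be a failed estimate, so these genes are not called silent.

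The partners of KRAB repression ranged widely in level. A list of 37 co-repressor genes was compared in the same way, and 36 reached 1 FPKM. The lowest was ATF7IP2, at 0.486 FPKM in DOX(-) against 0.659 in DOX(+), and the list had medians of 9.28 FPKM in DOX(-) against 8.98 in DOX(+). The median log2 ratio of the 36 was -0.11, with 23 (63.9%) below 0, beside -0.02 and 53.4% over all genes at that level. None was 1.5-fold higher or lower on the log2(FPKM + 1) scale, beside backgrounds of 3.11% higher and 4.06% lower over all genes. TRIM28, the scaffold that KRAB domains bind, was at 62.2 FPKM in DOX(-) against 67.4 FPKM in DOX(+), and SETDB1 was at 7.09 FPKM in DOX(-) against 7.04 in DOX(+). Of the 6 with the largest differences, DAXX, a histone chaperone, was the one higher in DOX(-), with 10.7 FPKM in DOX(-) against 7.63 in DOX(+). Its partner, the chromatin remodeller ATRX, had 1.17 FPKM in DOX(-) against 1.95 in DOX(+), and the remodeller SMARCAD1 had 3.63 FPKM in DOX(-) against 4.94 in DOX(+). UHRF1, a cofactor of maintenance DNA methylation, had 10.3 FPKM in DOX(-) against 13.3 in DOX(+), and was the one of the 6 whose interval, 0.665 to 0.890, left out equal levels. The heterochromatin protein gene CBX3 had 10.6 FPKM in DOX(-) against 13.5 in DOX(+). The H3K9 methyltransferase gene SUV39H2 had 3.81 FPKM in DOX(-) against 4.82 in DOX(+).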

How the data were processed

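RNA of 1 DOX(-) and 1 DOX(+) culture of HL60-EIF2S3 cells was sequenced. The deposited table holds 1 FPKM value per gene and library, as the authors made them, per the file headers. Tools named in the submitters' processing notes are StringTie 1.3.4b, HISAT2 2.1.0, CASAVA 1.8 and edgeR, beside the genome builds hg38 and GRCh38. Their roles, the annotation release and the read length are not given in the sources used here. Gene models came from GENCODE release 29, where all 246 members were found and 239 had the same locus.

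From the FPKM values, log2 ratios of FPKM + 1 were computed in DOX(-) over DOX(+), with a size rule of 1.5-fold among genes that reached 1 FPKM in at least 1 library. No count model was fitted and no test was made, as each condition had 1 library. Fragment totals were recovered from genes with 1 transcript, where 99.98% of values up to 100 fragments in DOX(-) and 99.97% in DOX(+) came out whole within 0.02 fragment. For a 1 kb transcript 3 fragments equal 0.181 FPKM in DOX(-) and 0.162 FPKM in DOX(+). Counting intervals are Clopper-Pearson intervals at 95%. Fragments are not independent molecules.

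C2H2 fingers and KRAB patterns were matched by regular expression in translated coding sequences, and 31-base words in transcripts. Genes named were the 15 highest by mean FPKM, the 10 with the largest ratio in each direction, the highest in each block, and members with published roles; others were chosen after their values were seen. The members and lists were chosen with earlier results of these data known. Python 3.11.15, numpy 2.4.6, pandas 2.3.3, scipy 1.17.1 and matplotlib 3.10.9 were used, and the scripts were tested on simulated data. Changed genes were simulated only at a mean of 5 FPKM or more and with a known transcript length. Recovery at the lower levels of most members was therefore not tested.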

Additional observations from a re-analysis of the deposited data

How the results depend on the processing

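The count of members at 1 FPKM or more in either library was 76 and became 40 at 2 FPKM. The count at least 1.5-fold lower in DOX(-), 9, became 21 with a pseudocount of 0.1 FPKM (beside 7.64% of all genes), 1 at 2-fold and 3 when the counting interval also had to leave out equal levels. The count at least 1.5-fold higher in DOX(-), 1, became 4 with a pseudocount of 0.1 or 0.5 FPKM (beside 5.48% and 4.21% of all genes), and 0 at 2-fold, with the interval, at 2 FPKM or more, at 1 FPKM or more in both libraries, or without members that share exons. Centring on GC groups, chosen after seeing the data, gave 4 lower and 2 higher, beside 2.61% and 2.4% of the other protein-coding genes. That set holds members at 1 FPKM or more in 1 library alone. The median log2 ratio, -0.206, was -0.00514 with no filter on low values, since most members then stand near 0, and it stayed below 0 under every setting run. ZNF787, at -0.0199 in the report, was at 0.00271 under trimmed-mean scaling, where the shift between the libraries was -0.024 on the log2 scale. The alternatives without ZNF580 and ZNF581, without members of shared words and at 1 FPKM or more in both libraries were also chosen after seeing the data.

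No paired analysis was possible because each condition had 1 library, and for the same reason no replicate was left out. Depth limits most members, since 170 of 246 were under 1 FPKM, where a pseudocount of 1 FPKM hides the ratio. Copies, shared exons and short alternative transcripts are sources of error that the counting intervals do not cover. EIF2S3 itself was at nearly equal levels, and DOX itself differed between the libraries.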
